A study of Homo sapiens with 14 samples.

Results

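The 10 genes *TAL1*, *LMO1*, *LMO2*, *LDB1*, *GATA3*, *RUNX1*, *MYB*, *TCF3*, *TCF12* and *ETS1* were followed through a count table of 61541 genes. They are the transcription factors and adaptors at the core of the TAL1 circuit of T-cell acute lymphoblastic leukaemia. They were picked by name and not by a rule on measured values, though with earlier results of these data known. All 10 were found in the table by their Ensembl identifier, and all 10 passed the filter on low counts, among 18963 genes tested. The cells were Jurkat, a human line of this leukaemia. Cells given APS-2-79, an inhibitor of the KSR scaffold proteins (KSRi, n = 3), were set against cells given the solvent DMSO (n = 3). Cells with KSR2 guide 1 (n = 3) or KSR2 guide 2 (n = 3) were set against cells with a non-targeting guide (NT, n = 2). Sample titles name the genetic method CRISPR knockout, the series text names it CRISPR interference, and NT library names carry the word shRNA. Dose, times, and whether the edited cells were a clone or a pool were not stated in the labels. Replicates are labelled as separate samples and not as separate cultures, so each p-value reflects only how far these samples spread, which may be technical.

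TAL1 is a basic helix-loop-helix protein that binds DNA as a dimer with an E protein, TCF3 or TCF12, and is joined through the LIM-only proteins LMO1 or LMO2 to LDB1 and to GATA3. RUNX1, MYB and ETS1 bind many of the same enhancers. TAL1 is normally silent in maturing T cells. In Jurkat a small insertion upstream of *TAL1* is known to create a binding site for MYB, at which the circuit assembles. LMO proteins have no DNA-binding domain of their own, and E proteins that are not paired with TAL1 drive genes of the developing thymocyte.

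The libraries held 21710466 to 45897075 counts, and those of 1 group had log2 CPM (counts scaled to library size) values correlated at 0.988 to 0.995 across genes. The label of a T-cell line held, since 14 of 14 T-cell markers averaged at least 1 CPM in every group and their sum was 3760 to 4622 CPM per library. Of 6 myeloid markers none averaged 1 CPM in any group, their sum was 0.391 to 0.879 CPM, and *CSF1R* was listed at 0 in every library. Markers of B cells (2 of 6 at 1 CPM or more, sum 23.7 to 72.5 CPM), of erythroid cells (1 or 2 of 7, sum 7.76 to 17.4 CPM) and of fibroblast or epithelial cells (1 of 6, sum 6.12 to 13.3 CPM) were low, with *HBB*, *COL3A1* and *EPCAM* listed at 0 in every library. The targeted gene stood at 0.541 ± 0.11 CPM with guide 1 (SD, n = 3), at 0.766 ± 0.0492 CPM with guide 2 (SD, n = 3) and at 29.5 ± 0.786 CPM with NT (SD, n = 2). *KSR2* stood at 34.3 ± 1.2 CPM with KSRi and 37.0 ± 2.23 CPM with DMSO (SD, n = 3 each). In bulk RNA, fewer cells of a type and less RNA per cell cannot be told apart, which applies to every level below.

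The first question is what the inhibitor did to the circuit. With KSRi *LMO1* and *MYB* fell and *RUNX1* rose, while *TAL1* itself and the other 6 genes did not pass the test. The count was 3 of 10, 1 higher and 2 lower, at an adjusted p under 0.05 in edgeR's quasi-likelihood test. Over all genes tested 40.7% passed it, 22.0% higher and 18.7% lower, so the share among the 10 was no larger than the background. The median log2 change was −0.14 over the 10 genes and 0.02 over all genes.

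The promoters of the 3 genes that passed are shown because motifs of the circuit's own factors can be read in them. They span 250 bases before to 50 bases after the RefSeq start (GRCh38.p14), 5′ to 3′ on the gene's strand. Capitals mark matches on either strand to 5 motifs. The MYB motif was spelled AACNG, and the ETS motif, which is short as well, was spelled GGAAG. The E-box, at which TAL1 and E proteins bind, was spelled CAGNTG. For GATA factors the letters searched were AGATAA, and for the RUNX family they were TGTGGT. No marked matches overlap. *MYB* is at chr6:135181058-135181357 on the plus strand, *LMO1* at chr11:8268738-8269037 on the minus strand and *RUNX1* at chr21:34888650-34888949 on the minus strand.
MYB: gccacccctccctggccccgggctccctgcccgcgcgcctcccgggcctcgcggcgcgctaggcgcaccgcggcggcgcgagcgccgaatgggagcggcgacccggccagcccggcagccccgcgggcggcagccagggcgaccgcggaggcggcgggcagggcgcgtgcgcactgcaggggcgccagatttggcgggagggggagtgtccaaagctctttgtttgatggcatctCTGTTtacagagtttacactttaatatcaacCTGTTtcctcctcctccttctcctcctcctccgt
LMO1: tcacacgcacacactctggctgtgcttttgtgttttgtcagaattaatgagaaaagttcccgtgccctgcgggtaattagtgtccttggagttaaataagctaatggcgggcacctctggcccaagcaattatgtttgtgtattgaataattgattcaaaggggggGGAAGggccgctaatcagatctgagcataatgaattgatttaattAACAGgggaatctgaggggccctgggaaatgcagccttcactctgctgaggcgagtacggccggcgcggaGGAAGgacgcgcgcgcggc
RUNX1: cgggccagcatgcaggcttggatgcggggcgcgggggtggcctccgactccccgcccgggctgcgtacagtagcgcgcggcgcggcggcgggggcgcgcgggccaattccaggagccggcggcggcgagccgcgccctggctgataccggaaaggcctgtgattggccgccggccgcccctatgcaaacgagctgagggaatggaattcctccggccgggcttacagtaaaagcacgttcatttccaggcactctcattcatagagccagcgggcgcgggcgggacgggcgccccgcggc
The *MYB* window held 2 matches to the MYB motif, both on the opposite strand and both after the middle of the window, and none of the other 4 kinds. The *LMO1* window held 1 MYB match and 2 ETS matches, while the *RUNX1* window held none of the 5 motifs. This 1 window of *RUNX1* lies inside the annotated span of the gene (34787801 to 36004667), and the sequence at the 5′ end of that span was not searched. Among 35116 promoter windows of the same length, 77.2% held the MYB motif, 71.9% the ETS motif, 49.9% the E-box, 13.1% the RUNX motif and 10.3% the GATA motif. These matches are descriptions of letters and not of binding. *TAL1* had 2 windows on the minus strand of chromosome 1, of which the one at 47232286 to 47232585 held 1 GATA match. The window at 47231666 to 47231965 held 3 RUNX, 3 MYB and 3 ETS matches.

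*LMO1* (ENSG00000166407, chromosome 11, 8224304 to 8268716, GRCh38) encodes 1 of the LIM-only adaptors and changed by the widest margin of the 10. It had 3.86, 2.9 and 3.82 CPM in the KSRi libraries, against 5.15, 4.76 and 5.77 CPM in the DMSO libraries. Every KSRi library lay below every DMSO library. *LMO1* was 1.51-fold lower (edgeR log2 change −0.60, SE 0.13, adjusted p = 0.00177) and was called in 21 of 21 alternative settings. *LMO2* (ENSG00000135363, chromosome 11, 33858576 to 33892289), the other adaptor, was close to undetected, at 0.235, 0.252 and 0.537 CPM with KSRi against 0.377, 0.331 and 0.181 CPM with DMSO. The groups overlapped, each library held only 7 to 15 counts, and the interval of its log2 change ran from −0.71 to 0.97, too wide to show a change of the size seen in *LMO1*.

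*MYB* (ENSG00000118513, chromosome 6, 135181315 to 135219173) encodes a factor that most dividing blood progenitors need. It had 412, 408 and 347 CPM with KSRi, against 539.8, 523 and 500.0 CPM with DMSO. All KSRi libraries were lower than all DMSO libraries, with KSRi replicate 3 the lowest. The fall with KSRi was 1.34-fold, with a log2 change of −0.42 (SE 0.10; adjusted p = 0.00265 in edgeR), called in 22 of 22 alternatives. The antisense gene *MYB-AS1*, whose exons overlap those of *MYB*, held 0 to 8 counts per library. Whether reads were counted by strand is not stated in the sources used here.

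*RUNX1* (ENSG00000159216, chromosome 21, 34787801 to 36004667), the factor of the RUNT family that the circuit uses, moved the other way. It had 795, 822 and 771 CPM with KSRi, against 696, 679.8 and 700.0 CPM with DMSO. The groups did not overlap, and *RUNX1* rose 1.15-fold (0.20 on the log2 scale, SE 0.07; adjusted p = 0.0316 in edgeR). This call was made in 14 of 22 alternatives. It was lost without KSRi replicate 2 (adjusted p = 0.106), without DMSO replicate 1, 2 or 3 (0.0684, 0.0945 and 0.0695) and without guide 1 replicate 2 (0.0714), all in edgeR, while the log2 change stayed between 0.17 and 0.21 in those 5 fits. It was also lost with no low-count filter (0.0744) and in a fit of KSRi and DMSO alone (0.0547).

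*TAL1* (ENSG00000162367, chromosome 1, 47216290 to 47232220) had 245, 280.5 and 280.3 CPM with KSRi, against 295, 289 and 305 CPM with DMSO. The libraries did not overlap, with all 3 KSRi libraries lower, and KSRi replicate 1 lay well under the other 2. The log2 change of −0.14 (SE 0.07, 95% interval −0.28 to 0.00) missed the threshold (edgeR adjusted p = 0.0942). It passed in 4 of 22 alternatives, among them DESeq2 (adjusted p = 0.0412), the 5 CPM filter (0.0332), and edgeR without guide 1 replicate 2 (0.033) or guide 2 replicate 3 (0.0238). The antisense gene *AL135960.1*, which shares exonic sequence with *TAL1*, held 1 to 8 counts per library.

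The E proteins, the DNA-binding partners of TAL1, stood close to the same size of difference. *TCF3* (E2A; ENSG00000071564, chromosome 19, 1609290 to 1652605) had 478.5, 532 and 564 CPM with KSRi, against 604, 579.6 and 581 CPM with DMSO. *TCF12* (HEB; ENSG00000140262, chromosome 15, 56918623 to 57299281) had 430.2, 391 and 356 CPM with KSRi, against 432, 442 and 438 CPM with DMSO. Both genes had every KSRi library below every DMSO library, and the spread within KSRi was the wider one. Both log2 changes were −0.16, with edgeR adjusted p-values of 0.0832 for *TCF3* and 0.125 for *TCF12*. Among the KSRi replicates the order was opposite for these genes, since replicate 1 was lowest for *TCF3* and highest for *TCF12*. *TCF3* passed without KSRi replicate 3 (edgeR adjusted p = 0.0336), guide 1 replicate 2 (0.0346) or guide 2 replicate 3 (0.0283). With the 5 CPM filter *TCF3* passed as well (edgeR adjusted p = 0.0373). *TCF12* passed without KSRi replicate 1 (edgeR adjusted p = 0.0174).

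*LDB1* (ENSG00000198728, chromosome 10, 102107560 to 102120453), which links LMO proteins to one another and to distant enhancers, had 145.5, 148 and 117 CPM with KSRi, against 141, 154 and 156 CPM with DMSO. The groups overlapped (log2 change −0.13, edgeR adjusted p = 0.291). *GATA3* (ENSG00000107485, chromosome 10, 8045378 to 8075203), the GATA factor of T cells, had 75.1, 89.5 and 68.7 CPM with KSRi, against 70.0, 67.6 and 60.2 CPM with DMSO. Its groups overlapped as well, the log2 change was 0.24 with an interval of 0.00 to 0.49, and the edgeR adjusted p was 0.105. Without KSRi replicate 3 it was 0.32 and passed (edgeR adjusted p = 0.0426). *ETS1* (ENSG00000134954, chromosome 11, 128458761 to 128587558), an ETS factor of lymphocytes, had 484, 526 and 529 CPM with KSRi, against 488, 461.5 and 484 CPM with DMSO. These groups overlapped, with a log2 change of 0.10 (edgeR adjusted p = 0.22).

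**Figure D1:**
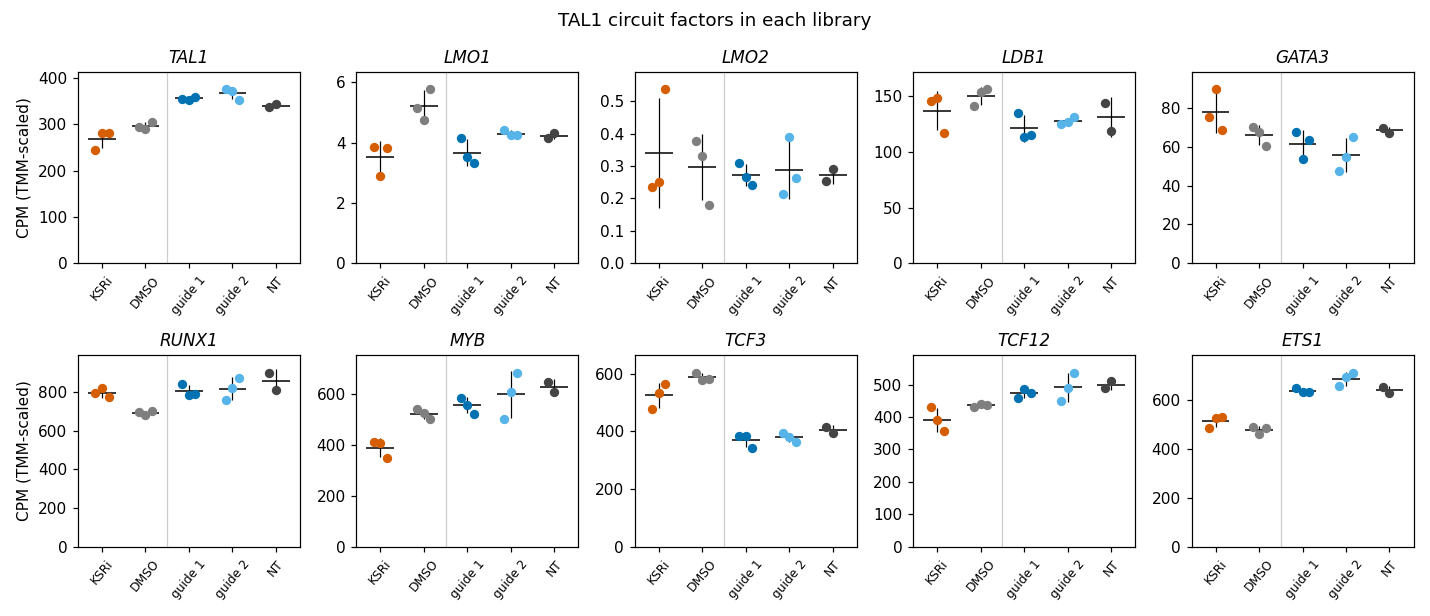
TMM-scaled CPM of each of the 10 genes in every library, by group; points are libraries, horizontal bars the group mean and vertical bars the SD (n = 3, and n = 2 for NT). The KSRi points lie wholly below the DMSO points for *LMO1*, *MYB*, *TAL1*, *TCF3* and *TCF12* and wholly above them for *RUNX1*, and the grey line separates the inhibitor groups from the guide groups. How many of all genes tested separate in this way was not counted.

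The number of changed genes moved with single libraries. It was 5 of 10 without KSRi replicate 3, where *GATA3* and *TCF3* joined, and 5 of 10 without guide 2 replicate 3, where *TAL1* and *TCF3* joined. Over the 14 fits that left out 1 library it ran from 2 to 5, and *LMO1* and *MYB* were called in each.

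The second question is whether loss of the *KSR2* transcript moved the circuit. None of the 10 genes passed in edgeR with guide 1, with guide 2 or with both guides together against NT, although *KSR2* fell 53.9-fold with guide 1 and 38.5-fold with guide 2. Over all genes the edgeR calls were also few, 0.00527% (1 gene) with guide 1, 0.0105% (2 genes) with guide 2 and 0.0158% (3 genes) with both. At an unadjusted p under 0.05, 0 of the 10 passed with guide 1, 1 with guide 2 and 0 with both. DESeq2, limma-voom and the other alternatives likewise called 0 of the 10. The half-width of the 95% intervals had a median of 0.25 (log2) over all genes for both guides together. These intervals are not adjusted for the number of genes tested. A change that only just leaves its interval clear of 0 would therefore not pass the adjusted test.

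*TAL1* had 356, 353 and 359.7 CPM with guide 1 and 376, 373 and 352.5 CPM with guide 2, against 337 and 343 CPM with NT. All 6 guide libraries were above both NT libraries, by a log2 change of 0.09 with an interval of −0.05 to 0.23 (edgeR adjusted p = 0.989). *MYB* had 585, 556 and 522.5 CPM with guide 1 and 502, 608 and 684 CPM with guide 2, against 648.5 and 606 CPM with NT. Guide 1 libraries all lay below NT while guide 2 libraries straddled it, and the change with both was −0.12 (−0.33 to 0.08; edgeR adjusted p = 0.989). *LMO1* had 4.17, 3.51 and 3.31 CPM with guide 1 and 4.42, 4.25 and 4.24 CPM with guide 2, against 4.16 and 4.31 CPM with NT. The *LMO1* libraries overlapped with NT, and the interval of −0.36 to 0.17 around −0.10 did not reach the −0.60 seen with the inhibitor.

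*GATA3* came nearest to a change with a guide. It had 47.3, 54.9 and 64.7 CPM with guide 2, against 69.6 and 67.2 CPM with NT, so that all guide 2 libraries were lower. The log2 change of −0.30 had an unadjusted p of 0.0349 and an edgeR adjusted p of 1. With guide 1 *GATA3* had 67.3, 53.6 and 63.3 CPM and overlapped NT. *RUNX1* had 842, 782.5 and 787 CPM with guide 1 and 756, 817 and 873 CPM with guide 2, against 899.9 and 809 CPM with NT, which overlapped.

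For the rest of the circuit no change passed either, and both guides share the NT libraries as their control. *ETS1* averaged 638 ± 9.79 CPM with guide 1, 687 ± 28.9 CPM with guide 2 (SD, n = 3 each) and 639.7 ± 17.6 CPM with NT (SD, n = 2). *TCF12* averaged 473.5 ± 13.6, 492 ± 44.4 and 500.0 ± 14.9 CPM in guide 1, guide 2 and NT. The means of *TCF3* were 371 ± 23.6 CPM with guide 1, 379.9 ± 15.6 CPM with guide 2 and 404 ± 16.2 CPM with NT. The libraries of *TCF3* and of *TCF12* with guide 1 all lay below NT, and those of *ETS1* with guide 2 all lay above it, without passing the test. How many of all genes lay wholly on 1 side of NT was not counted, here or for the genes above. The log2 changes with both guides were 0.05 for *ETS1* (−0.09 to 0.18), −0.05 for *TCF12* (−0.22 to 0.11) and −0.11 for *TCF3* (−0.26 to 0.05). *LDB1* changed by −0.08 (−0.28 to 0.12) and *RUNX1* by −0.08 (−0.23 to 0.07). For *LMO2*, at 0.213 to 0.391 CPM in the 6 guide libraries and 0.253 and 0.291 CPM in the NT libraries, the interval of −0.78 to 0.85 left most sizes of change undetectable at this depth.

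Guide 2 and guide 1 were also set against each other, and 0 of the 10 genes differed in edgeR (0 at an unadjusted p under 0.05, and 0 in DESeq2 and limma-voom), where 0.00527% of all genes (1 gene) did. The *LMO1* libraries of guide 2, at 4.24 to 4.42 CPM, all lay above those of guide 1, at 3.31 to 4.17 CPM (log2 difference 0.23, edgeR adjusted p = 1). *ETS1* separated likewise, at 654.9 to 712 CPM with guide 2 and 631 to 649 CPM with guide 1 (log2 difference 0.11, edgeR adjusted p = 1).

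**Figure D2:**
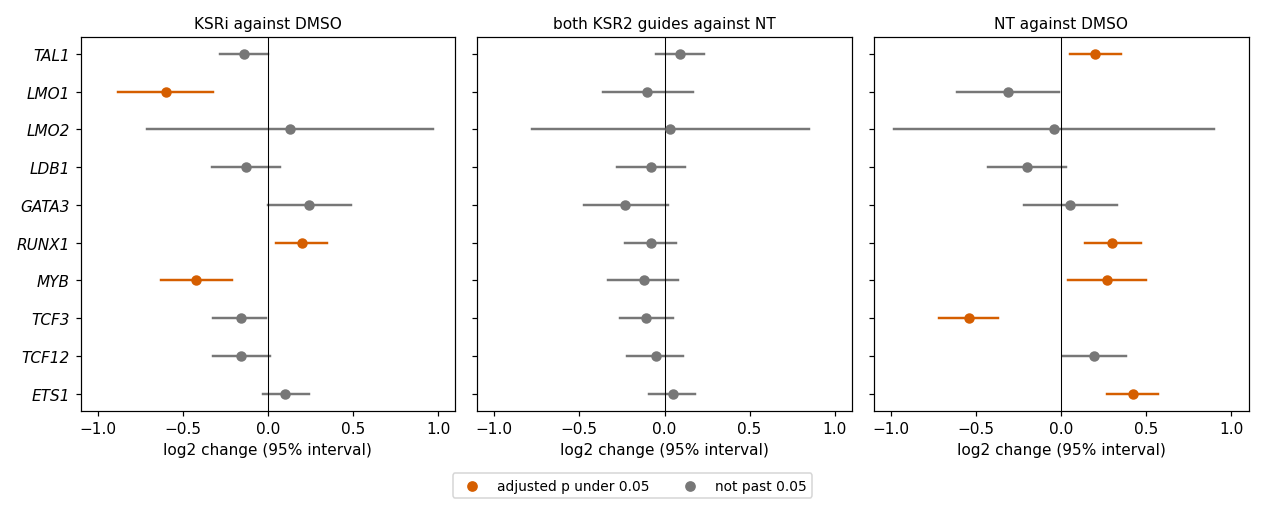
log2 change of the 10 genes with its 95% interval in 3 comparisons, from the edgeR fit over 14 libraries; orange marks an adjusted p under 0.05 and grey the rest. With KSRi *LMO1* and *MYB* lie left of 0 and *RUNX1* right of it, all guide intervals include 0, and 5 genes stand apart between the control groups NT and DMSO.

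The inhibitor's change and the guides' change were compared directly, as the log2 change with KSRi minus that with both guides, each against its own control. Of the 10 genes 3 differed, 2 higher and 1 lower, against 28.6% of all genes tested, 16.6% higher and 12.1% lower. *LMO1* changed by −0.60 with KSRi and −0.10 with the guides, a difference of −0.50 (SE 0.18, edgeR adjusted p = 0.0498). *GATA3* changed by 0.24 with KSRi and −0.23 with the guides, a difference of 0.47 (SE 0.16, edgeR adjusted p = 0.0404), although neither change passed by itself. *RUNX1* changed by 0.20 with KSRi and −0.08 with the guides, a difference of 0.28 (SE 0.10, edgeR adjusted p = 0.0458). All 3 differences lie close to the threshold. The count was 0 of 10 without KSRi replicate 2, DMSO replicate 3 or guide 2 replicate 2. It was 1 of 10 without DMSO replicate 1 or 2, guide 1 replicate 2 or 3, or guide 2 replicate 1. Neither *LMO1* nor *GATA3* kept its call without either NT library, a fit that leaves 1 NT sample. Without NT replicate 1 the differences were −0.48 for *LMO1*, 0.44 for *GATA3* and 0.20 for *RUNX1*, which lost its call too. Without NT replicate 2 they were −0.53 for *LMO1* and 0.50 for *GATA3*. Without guide 1 replicate 2 the gene that passed was *TAL1* (edgeR adjusted p = 0.043), and without guide 2 replicate 1 it was *MYB* (0.0345). In both of these fits *LMO1*, *GATA3* and *RUNX1* all failed to pass. *MYB* (−0.30, edgeR adjusted p = 0.12) and *TAL1* (−0.23, edgeR adjusted p = 0.0733) did not pass in the fit over all 14 libraries, so that a difference between the inhibitor and the guides in *MYB* was not shown. *TAL1* passed in 6 of 22 alternatives and *MYB* in 2 of 22.

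Levels of the 10 genes also differed between the 2 controls. With NT *TCF3* was lower and *ETS1*, *RUNX1*, *TAL1* and *MYB* were higher than with DMSO, 5 of 10 in edgeR, where 65.8% of all genes tested passed, 34.6% higher and 31.2% lower. *TCF3* had 416 and 393 CPM with NT, against 604, 579.6 and 581 CPM with DMSO (log2 change −0.54, edgeR adjusted p = 2.27e-05). *ETS1* had 652 and 627 CPM with NT, against 488, 461.5 and 484 CPM with DMSO (log2 change 0.42, edgeR adjusted p = 6.02e-05). The libraries did not overlap in either gene. *RUNX1* differed by 0.30 (edgeR adjusted p = 0.00281), *TAL1* by 0.20 (0.0233) and *MYB* by 0.27 (0.0393). Without NT replicate 1 *RUNX1* (edgeR adjusted p = 0.0636), *TAL1* (0.0707) and *MYB* (0.203) were lost, and without NT replicate 2 *TAL1* (0.11) and *MYB* (0.0669). Without DMSO replicate 1 or 2 *TAL1* (0.0555 and 0.0718) and *MYB* (0.0515 and 0.0731) were lost, and without DMSO replicate 3 *MYB* (0.11). DESeq2 did not call *MYB* either (adjusted p = 0.054). *TCF12* (0.19), *LMO1* (−0.31), *LDB1* (−0.20), *GATA3* (0.05) and *LMO2* (−0.04) did not pass. *TCF12* was nevertheless called in 9 of 22 alternatives, limma-voom among them (adjusted p = 0.0455), and *LMO1* in 2 of 21. Without NT replicate 1 *LDB1* stood at −0.35. Upper-quartile scaling moved the median of all genes in this comparison to 0.26, against 0.04 with TMM, and the calls to 8283 higher and 4187 lower (66.4% higher), against 6568 and 5909 (52.6% higher) with TMM, and *LDB1* then stood at 0.02. With that scaling *TCF12* passed at 0.41 (edgeR adjusted p = 0.00078), *TAL1* stood at 0.42, *MYB* at 0.48 and *TCF3* at −0.32, to be read against the median of 0.26. Markers of other cell types moved too, with 2 of 2 tested B-cell markers higher (sum 50.6 to 72.5 CPM with NT against 23.7 to 25.5 CPM with DMSO) and 2 of 2 erythroid markers higher (15.1 to 16 CPM with NT against 7.76 to 8.0 CPM with DMSO). The 1 tested myeloid marker, *CD14*, was lower, at 0.152 CPM with NT against 0.562 CPM with DMSO. Of 2 tested fibroblast or epithelial markers 1 was higher, and of 14 T-cell markers 5 were higher and 5 lower. The part of these markers in these differences was not tested. This comparison shares its DMSO libraries with that of the inhibitor. The solvent, the guide construct and whatever else separates these control groups cannot be told apart.

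**Figure D3:**
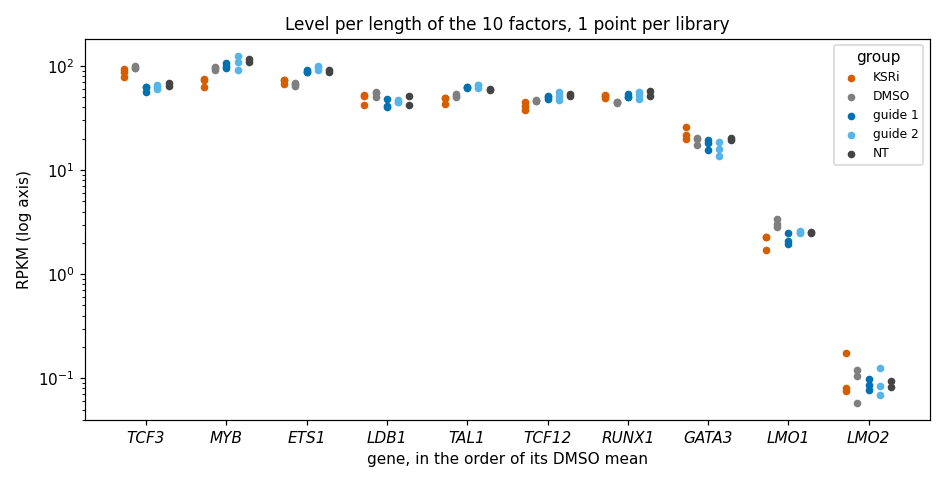
RPKM of the 10 genes on a log axis, 1 point per library, coloured by group and ordered by the DMSO mean. Group means of 8 genes lie between 16.2 and 114 RPKM, those of *LMO1* between 2.09 and 3.09 RPKM and those of *LMO2* between 0.0875 and 0.11 RPKM.

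Per length (RPKM over the union of annotated exons), the 10 genes covered a wide range of levels. With KSRi *TCF3* led at 86.3 ± 7.12 RPKM (SD, n = 3), *ETS1* at 71.8 ± 3.51 and *MYB* at 70.8 ± 6.66 RPKM did not separate, and *RUNX1*, *LDB1*, *TAL1* and *TCF12* followed at 51.1 to 41.6 RPKM with no neighbours apart. In DMSO cells *TCF3* averaged 96.8 ± 2.28 and *MYB* 94.8 ± 3.64 RPKM (SD, n = 3), which did not differ beyond their spread. Next came *ETS1* at 66.9 ± 2.01, *LDB1* at 53.9 ± 2.97, *TAL1* at 52.0 ± 1.4, *TCF12* at 46.3 ± 0.548 and *RUNX1* at 44.4 ± 0.682 RPKM, of which *LDB1* and *TAL1* lay within each other's spread. *GATA3* followed at 19.2 ± 1.49 RPKM, then *LMO1* at 3.09 ± 0.301 and *LMO2* at 0.0953 ± 0.0329 RPKM. In the guide groups *MYB* led, at 101 ± 5.69 RPKM with guide 1, 109 ± 16.7 RPKM with guide 2 and 114 ± 5.44 RPKM with NT, before *ETS1* at 89.2, 96.0 and 89.5 RPKM, though with guide 2 the spreads of *MYB* and *ETS1* met. *TAL1* and *TCF3* were next there, at 62.5 and 61.0 RPKM with guide 1, 64.4 and 62.5 RPKM with guide 2 and 59.7 and 66.5 RPKM with NT. *GATA3*, *LMO1* and *LMO2* were the lowest 3, in that order, in all 5 groups. The order above them depends on the length used: over the longest annotated transcript (7274 bases, against 15574 exonic bases) the DMSO mean of *RUNX1* was 95.1 RPKM, behind *MYB* at 142 and *TCF3* at 132 RPKM.

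Ratios within a library set the partners against each other. *TCF3* over *TCF12* (RPKM) averaged 2.1 ± 0.365 with KSRi and 2.09 ± 0.0757 with DMSO (SD, n = 3 each), and 1.22 ± 0.085 with guide 1, 1.21 ± 0.16 with guide 2 and 1.26 ± 0.0849 with NT. The KSRi replicates spread widely, at 1.73, 2.11 and 2.46, and the ratio in every KSRi or DMSO library exceeded that in every guide or NT library. *TAL1* over the sum of the E proteins *TCF3*, *TCF12* and *TCF4* averaged 0.367 ± 0.0195 with KSRi and 0.363 ± 0.0115 with DMSO. With guide 1 it averaged 0.561 ± 0.0265, with guide 2 0.561 ± 0.0293 and with NT 0.498 ± 0.0106 (SD, n = 2). All 6 guide libraries lay above both NT libraries, though none of the genes in this ratio passed with the guides. The ratios were not tested, and how many ratios of other genes separate in this way was not counted. *LMO1* over *LMO2* ran from 13.1 to 58.6 over the libraries, a spread that the few *LMO2* counts make imprecise.

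**Figure D4:**
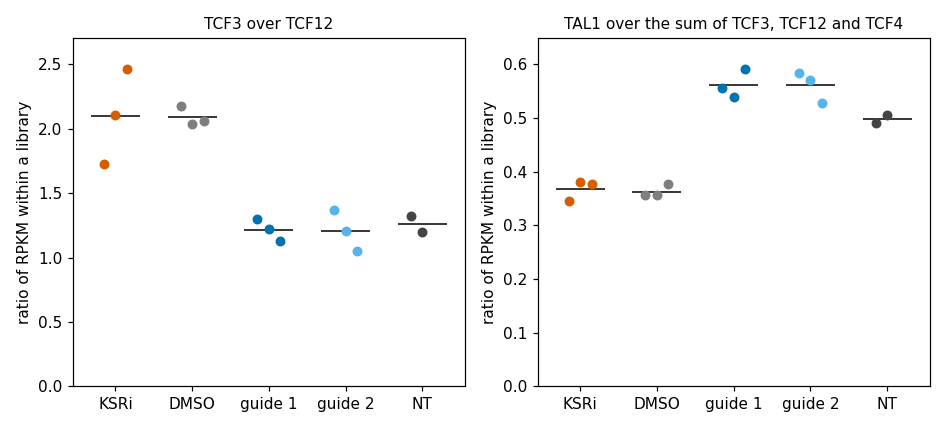
Ratios of RPKM within each library, *TCF3* over *TCF12* on the left and *TAL1* over the 3 E proteins on the right, with 1 point per library and a bar at the group mean. KSRi and DMSO have close means in both ratios (2.1 and 2.09 on the left, 0.367 and 0.363 on the right). On the left the guide groups lie near NT (1.22 and 1.21 against 1.26), and on the right they lie above it (0.561 each against 0.498). Neither ratio was tested.

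Over the 5 group means *MYB* varied most of the 10, by 0.69 on the log2 scale between KSRi, the lowest, and NT, the highest. The genes whose 5 group means most resembled those of *MYB*, among 10836 genes of at least 5 CPM, were *RPL23AP7*, *ZBTB2* and *ZBTB12*. Their root mean square differences were 0.035, 0.046 and 0.047 on the log2 scale after centring. *ZBTB2*, for example, averaged 18.7 CPM with KSRi, 27.5 CPM with DMSO, 28.1 CPM with guide 1, 30.4 CPM with guide 2 and 32.8 CPM with NT. *TAL1* was most like *SSR1* (0.015), *NBEA* (0.017) and *ZNF22* (0.018). The likeness is over 5 means only.

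Relatives and partners of the circuit, 24 tested of 27, were counted next, and 6 rose and 7 fell with KSRi, against 22.0% higher and 18.7% lower over all genes (median −0.12; *GATA1*, *LDB2* and *LMO3* were not tested). *RUNX2*, a paralogue of *RUNX1*, averaged 59.4 ± 2.14 CPM with KSRi and 36.6 ± 2.08 CPM with DMSO (SD, n = 3 each), a 1.62-fold rise (edgeR adjusted p = 1.58e-06). *LMO4*, a LIM-only relative of *LMO1*, averaged 59.8 ± 4.39 CPM with KSRi and 42.6 ± 0.601 CPM with DMSO, 1.40-fold higher (edgeR adjusted p = 3.47e-05). The corepressor pair split, as *CBFA2T3* (ETO2) fell (log2 change −0.51) and *CBFA2T2* rose (0.45; edgeR adjusted p = 0.000149 and 0.000196). *TCF4*, the E protein relative of *TCF3* and *TCF12*, averaged 6.73 ± 1.12 CPM with KSRi and 10.6 ± 0.372 CPM with DMSO, 1.56-fold lower (edgeR adjusted p = 0.000362). *ETS2*, a paralogue of *ETS1*, fell 1.55-fold (edgeR adjusted p = 3.97e-06). *GABPA*, another ETS protein, fell 1.43-fold (edgeR adjusted p = 0.00172). None of the 24 passed with either guide or both in edgeR.

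ID proteins bind E proteins and keep them off DNA. With KSRi *ID2* averaged 8.95 ± 1.44 CPM, against 4.12 ± 0.976 CPM with DMSO, a 2.14-fold rise (edgeR adjusted p = 3.16e-05). *ID3* averaged 86.5 ± 8.08 CPM with KSRi and 66.6 ± 5.67 CPM with DMSO, 1.30-fold higher (edgeR adjusted p = 0.00482). *ID1* fell 1.33-fold, to 15 ± 1.45 CPM with KSRi against 20.2 ± 0.102 CPM with DMSO (edgeR adjusted p = 0.00349). Of 3 tested ID genes 2 thus rose and 1 fell (*ID4* was not tested), in a comparison that called 40.7% of all genes. None was called for the guides in edgeR, which called 1 gene with guide 1, 2 genes with guide 2 and 3 genes with both over the whole table. *ID1* was nevertheless at 3.17 to 4.22 CPM in all 6 guide libraries, below the 4.92 and 5.93 CPM of the NT libraries, a log2 change of −0.60 that did not pass (edgeR adjusted p = 0.203).

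Genes known as targets of the TAL1 complex in T-ALL cells gave 4 higher and 5 lower of 20 with KSRi (median 0.01), a share close to the 40.7% of all genes called in that comparison. *CD53*, a tetraspanin, averaged 173 ± 10.9 CPM with KSRi and 107.0 ± 4.97 CPM with DMSO, 1.62-fold higher (edgeR adjusted p = 5.96e-07). *UBE2H*, a ubiquitin-conjugating enzyme, was 1.67-fold higher (edgeR adjusted p = 2.04e-06). The GTPase genes *GIMAP2* and *GIMAP4* were 1.68-fold and 1.56-fold higher (edgeR adjusted p = 1.56e-05 and 4.63e-05). *MYC*, which drives growth, averaged 407 ± 33 CPM with KSRi and 568 ± 17.8 CPM with DMSO, 1.39-fold lower (edgeR adjusted p = 2.9e-05). *CDK6*, a kinase of the cell cycle, was 1.40-fold lower (edgeR adjusted p = 0.000678). With the guides 0 of the 20 passed in edgeR. *MYC* differed far more between the controls, at 116 ± 0.737 CPM with NT against 568 ± 17.8 CPM with DMSO.

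Thymocyte genes that depend on E proteins showed 1 rise and 3 falls among 9 with KSRi (median −0.17), again close to the 40.7% called over all genes. *RAG1*, a subunit of the antigen receptor recombinase, averaged 103 ± 11.3 CPM with KSRi and 191.5 ± 4.29 CPM with DMSO, 1.86-fold lower (edgeR adjusted p = 2.46e-07). *PTCRA*, which encodes a chain of the receptor used before the T-cell receptor is complete, fell 1.97-fold and *NOTCH3* 1.27-fold (edgeR adjusted p = 6.63e-05 and 0.00226). The cyclin-dependent kinase inhibitor gene *CDKN1A* rose 2.29-fold, to 4.42 ± 0.949 CPM with KSRi against 1.9 ± 0.157 CPM with DMSO (edgeR adjusted p = 1.42e-05). *RAG2* (log2 change −0.30) and *GFI1* (0.18) did not pass. None of the 9 passed with the guides in edgeR.

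Of the neighbours of *TAL1* on chromosome 1, 3 of 8 could be tested. *STIL*, the gene next to it, did not pass with KSRi (log2 change 0.01, 95% interval −0.13 to 0.14), nor did *CMPK1* (−0.11, −0.25 to 0.04), while *FOXD2* was 1.62-fold higher at 4.46 ± 0.485 CPM with KSRi against 2.81 ± 0.303 CPM with DMSO (edgeR adjusted p = 0.00185). T-cell markers moved in the same comparison, with 7 of 14 higher and 0 lower with KSRi in edgeR (22.0% higher and 18.7% lower over all genes), among them *CD28* (log2 change 0.60) and *CD3E* (0.64), and their sum was 4081 to 4622 CPM with KSRi against 3760 to 3874 CPM with DMSO. The erythroid list rose by *EPOR* (0.81), and its sum was 11.2 to 16.2 CPM with KSRi against 7.76 to 8.0 CPM with DMSO. The fibroblast and epithelial list moved by *COL1A1* (0.78), with a sum of 8.8 to 13.3 CPM with KSRi against 6.12 to 6.62 CPM with DMSO. The part of these markers in the changes above was not tested.

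**Figure D5:**
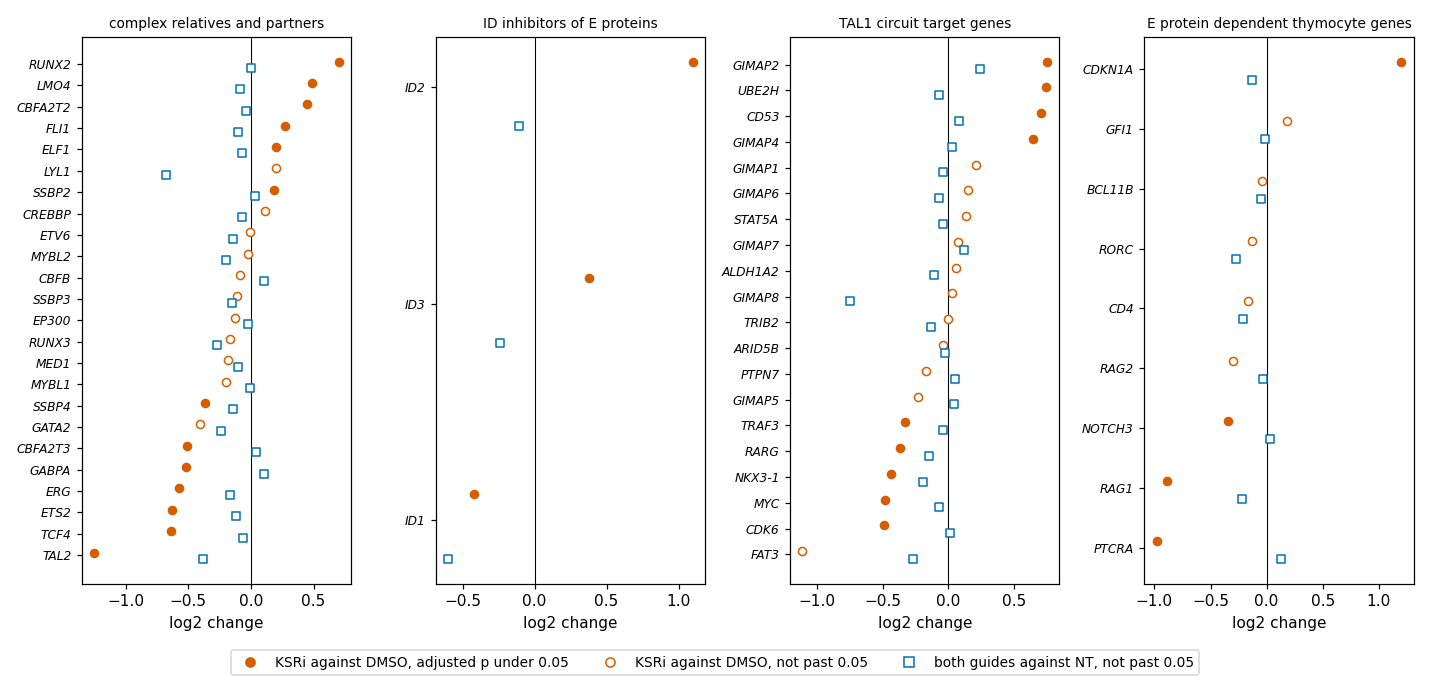
log2 change of each tested gene of 4 lists, with KSRi against DMSO (orange, filled where the edgeR adjusted p was under 0.05) and with both guides against NT (blue squares, none past it). Filled points lie on both sides of 0 in each list, from *CDKN1A* at 1.2 to *TAL2* at −1.25.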

How the data were processed

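The authors deposited 1 table of counts, whole numbers for each Ensembl identifier in the 14 libraries, not normalized. Per the labels' protocols, RNA was taken with a column kit and libraries were made with a Watchmaker mRNA kit. GRCh38, STAR 2.7.11b and DESeq2 1.42.1 are named, per the submitters' processing notes. How reads were assigned to genes, by which annotation and whether by strand was not stated there, which matters for overlapping and antisense genes. Symbols, positions and exon lengths came from GENCODE release 29 on GRCh38, with 42204 identifiers matched to a symbol. Of the 10 genes, 8 matched the RefSeq promoter table; *LMO2* and *ETS1* did not.

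The edgeR package (4.0.16, R 4.3.3) was applied to the counts as deposited: TMM factors, filterByExpr on the 5 groups (18963 genes), 1 mean per group over all 14 libraries, quasi-likelihood F tests of contrasts, and Benjamini-Hochberg adjustment over all tested genes at 0.05. CPM are TMM-scaled; RPKM divide them by the union of exons. The common biological coefficient of variation was 8.6%. Depth was 21710466 to 45897075 counts per library, and every replicate pair differed beyond counting noise (chi-square over its degrees of freedom, 5.83 to 49.94), which kept all 14 libraries apart. As alternatives, upper-quartile and RLE factors were tried, as were no filter, at least 5 CPM in 3 libraries, limma-voom (limma 3.58.1), DESeq2 1.42.0, only the groups compared, a replicate block, an adjusted p under 0.01, each library left out, and transcript length. The 10 genes, the gene lists and the naming rule were chosen with earlier results of these data known. All 10 genes are named; of each list, the up to 6 with the lowest p with KSRi, and up to 6 whose inhibitor and guide effects differed, were eligible to be named.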

Additional observations from a re-analysis of the deposited data

Results flagged for a closer look

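For 3 of the 10 genes the log2 change with KSRi against DMSO differed from that with both guides against NT, by a test of the difference itself in edgeR's quasi-likelihood fit, where 28.6% of all genes differed. *LMO1* differed by −0.50 (adjusted p = 0.0498), with all 3 KSRi libraries below all 3 DMSO libraries, and the difference was called in 6 of 21 alternatives. *GATA3* differed by 0.47 (adjusted p = 0.0404), called in 12 of 22 alternatives. *RUNX1* differed by 0.28 (adjusted p = 0.0458), called in 10 of 22 alternatives, with all 3 KSRi libraries above all 3 DMSO libraries. The guide libraries of *LMO1* and of *RUNX1* overlapped NT. How many of all genes separate KSRi from DMSO in this way was not counted. The inhibitor and the guides had separate controls, and those controls differed in 5 of the 10 genes, against 65.8% of all genes.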

How the results depend on the processing

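No call of the 10 genes changed its sign under any alternative, and uncalled changes crossed 0 in 2 (KSRi against DMSO) to 7 (NT against DMSO) of 217 or 218 values per comparison. With KSRi *LMO1* and *MYB* were called throughout. Leaving out 1 library gave 2 to 5 of the 10 called with KSRi, 3 to 6 between NT and DMSO and 0 to 3 for the inhibitor minus guide effect. It gave 6209 to 8928 of all genes with KSRi, 10722 to 13207 between NT and DMSO, 3366 to 7377 for the difference, 1 to 5 with guide 1, 2 to 6 with guide 2, 1 to 5 with both and 1 to 2 between the guides. At an adjusted p under 0.01 the difference fell to 0 of 10 and NT against DMSO to 3; there 2908 genes differed in the difference and 1 with both guides. With no low-count filter 35, 35, 41 and 13 genes were called with guide 1, guide 2, both and between the guides, and DESeq2 called 8, 5, 7 and 2; limma-voom called 1 with both. The cause was not tested. Replicate numbers did not pair the samples (correlation of same-numbered deviations −0.10 to 0.00 for KSRi and DMSO, −0.02 to 0.11 in the guide arm); the replicate block gave 2 genes with guide 1, 2 of the 10 with KSRi and 0 of the 10 for the difference. *LMO1* and *LMO2* were not tested under the 5 CPM filter. *LMO2*, at 7 to 15 counts, is limited by depth. Using the longest transcript as length moved the RPKM of most genes beyond 1 SD.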
